A study of Mus musculus with 6 samples.

Results

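Macrophages of the intact heart were compared with macrophages of the peritoneal cavity of the mouse on 4 of the 6 bead arrays of the series, 2 for each site. The arrays were chosen by the group that their titles name. The other 2 arrays held cells of the heart with myocardial infarction (MI heart). They entered the fit for a shared estimate of the spread and are otherwise given only as values. All groups are labelled as M2-like macrophages, the mice were C57BL/6 and 10 weeks old, and the series title defines such cells as positive for CD206, F4/80 and CD11b, the proteins of the genes Mrc1, Adgre1 and Itgam. The labels name no transgene, no agent and no sham operation. The way in which cells were released and sorted is not stated, and the number of animals behind an array is not given in the sources used here. A difference between the groups is therefore one of tissue together with preparation, which cannot be told apart. Whether the arrays of a group came from separate animals is not given either, so the spread behind each p-value may be only technical. In RNA of whole cell samples, fewer cells of a type and less RNA per cell cannot be told apart.

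Tissue macrophages share a core programme of uptake, digestion and sensing, and add to it genes that depend on the organ they live in. In the peritoneal cavity of the mouse, the large resident macrophages depend on the transcription factor GATA6, which retinoic acid induces, and are known for adhesion, coagulation and lipid mediator genes such as Icam2, F10, Selp and Alox15. In the heart, resident macrophages lie between muscle fibres and along vessels, take up dying cells and are known for genes such as Lyve1, Folr2, Cd163 and Timd4. Some of them also present antigen on MHC class II.

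Levels below are normalized log2 intensities of 1 probe per gene. Differences are intact heart minus peritoneal cavity on that scale, each with its standard error (± SE, n = 2 arrays per group), and a gene was called higher or lower in the intact heart if limma's adjusted p over all 10533 tests was under 0.05. Where a gene was above background (detection p under 0.05) on none or only 1 of the arrays of the dimmer group, its fold is given as a bound in the form "at least". A gene counted as above background on an array if any of its probes was, not only the probe whose level is given. The bound sets the mean of the brighter group against a floor, taken on each dim array as the lowest signal that a probe above background had there, or the gene's own if that was higher. It leaves the spread between arrays aside. In 10533 tests, each of a gene or an unnamed probe, 1321 were called higher in the intact heart (12.5%) and 1352 lower (12.8%), or 25.4% in all. An unadjusted p under 0.05 was reached by 3988. Counts of members called in the gene lists below stand against the 12.5% and 12.8% of all tests. All lists were chosen with earlier results of these arrays known. A member could enter the tests by being above background on both arrays of only 1 of the 3 groups. The counts and sums of the lists are therefore descriptions. The median difference over all tests was -0.03. When the arrays were brought to a common median and not quantile normalized, limma called 740 higher and 1918 lower (27.8% of the calls higher, against 49.4%), and the median was -0.18. Fitted differences of at least 4-fold were found in 185 of the higher and 117 of the lower genes, and of at least 16-fold in 15 and 13. Only a bound on the fold was available for 379 of the higher and 391 of the lower genes. The 2 arrays of a site did not overlap those of the other site in 63.3% of all tests, so a lack of overlap was common. Between 12433 and 14606 of 45281 probes were above background per array, the fewest on intact heart replicate 1. Replicates differed with an SD over all tests of 0.366 in the intact heart and 0.288 in the peritoneal cavity. The plot of the site means shows the called genes on either side of the diagonal.

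**Figure D1:**
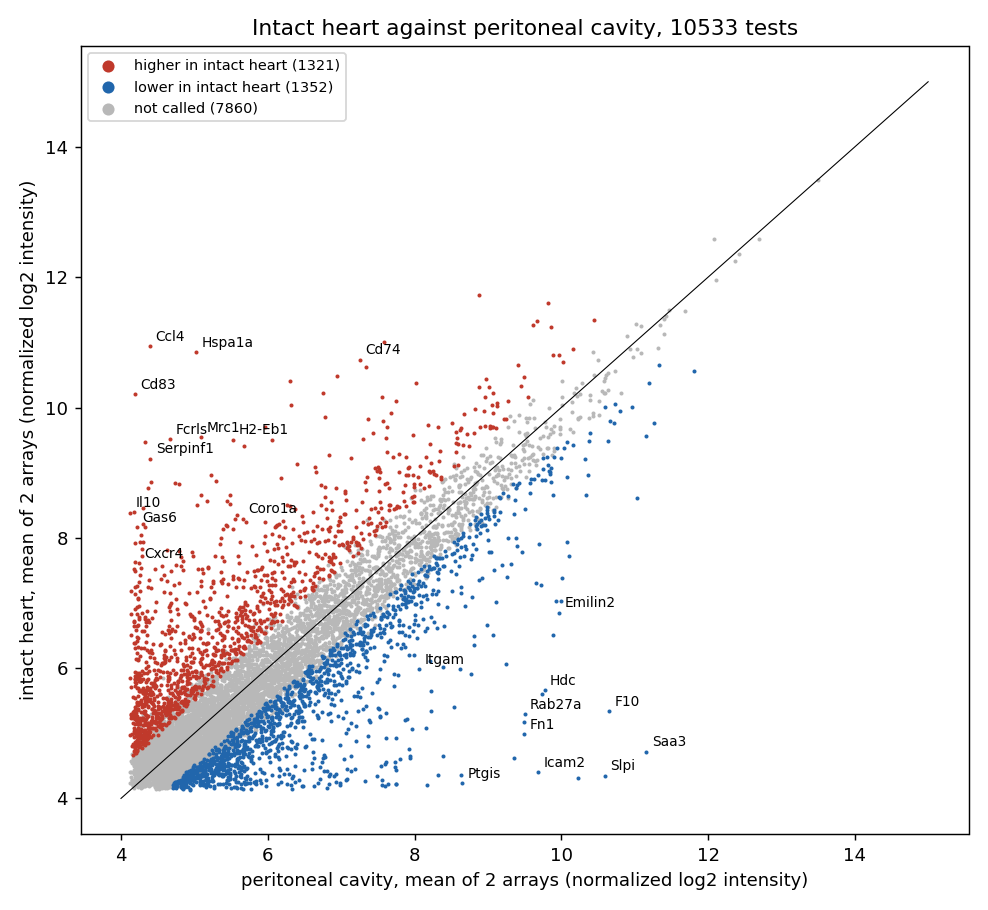
Each point is 1 of 10533 genes or unnamed probes, placed by its mean normalized log2 intensity on the 2 intact heart arrays (vertical axis) and on the 2 peritoneal cavity arrays (horizontal axis). Red points (1321) were called higher and blue points (1352) lower in the intact heart, grey points were not called, and the line marks equal values. Ccl4, Hspa1a and Cd83 lie farthest above the line and Saa3 and Slpi farthest below it.

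Of the 3 genes whose proteins define the cells, Mrc1, the mannose receptor CD206, was far higher in the intact heart, Itgam, the CD11b chain of the complement receptor, was lower, and Adgre1 (F4/80), an adhesion receptor of macrophages, was not called. Mrc1 read 9.57 and 9.51 on the intact heart arrays, against 5.20 and 4.99 on the peritoneal arrays (4.45 ± 0.19, adjusted p = 2.31e-06). The heart arrays were high and close together and the groups did not overlap. Itgam read 6.32 and 5.64 on the intact heart arrays, against 8.16 and 7.96 on the peritoneal arrays (-2.08 ± 0.24, adjusted p = 0.000332), again without overlap but in the other direction. Adgre1 read 7.70 and 7.38 on the intact heart arrays, against 7.74 and 8.21 on the peritoneal arrays (-0.43 ± 0.25, adjusted p = 0.25), and here the higher heart value lay just under the lower peritoneal value. On the MI heart arrays Mrc1 read 8.64 and 9.07 and Itgam 7.15 and 6.86.

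General macrophage markers were above background at both sites and most had no call. Of 13 tested members, 4 were higher in the intact heart, 2 lower and 7 without a call, with a median difference of 0.25. The lower ones were 15.4% of the members, near the 12.8% of all tests. Cd63, a tetraspanin of lysosomes, read 8.40 and 9.16 on the intact heart arrays, against 6.93 and 6.62 on the peritoneal arrays (2.004 ± 0.30, adjusted p = 0.00165). Aif1, the calcium-binding protein IBA1, differed by 1.78 ± 0.25 (adjusted p = 0.00105), and Cd14, the co-receptor for bacterial lipopolysaccharide, by 1.27 ± 0.17 (adjusted p = 0.000842). The lysosomal protease gene Lgmn was the other higher member (0.97 ± 0.15, adjusted p = 0.00189). Lyz2, which encodes lysozyme, was lower (-1.24 ± 0.17, adjusted p = 0.00107). Laptm5, a lysosomal membrane protein, was lower too (-0.68 ± 0.17, adjusted p = 0.0185), but its call was lost with either peritoneal array left out (adjusted p = 0.119 without peritoneal cavity replicate 1 and adjusted p = 0.0607 without peritoneal cavity replicate 2), which left 1 lower member, and without intact heart replicate 2. The members not called included Csf1r, the receptor for the survival factor CSF1 (0.25 ± 0.21, adjusted p = 0.401), Mertk, a receptor for apoptotic cells (-0.20 ± 0.30, adjusted p = 0.666), and the adaptor gene Tyrobp (-0.07 ± 0.25, adjusted p = 0.863).

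Some transcripts of heart muscle were higher in the heart group, at low levels. Of 10 tested members, 5 were higher in the intact heart, 1 lower and 4 without a call, with a median difference of 0.61. The detection filter was passed by 10 of the 18 markers on the array. Of the 18, 7 were above background on no heart array and 11 on no peritoneal array. A marker could pass the filter through 1 group alone, so the counts and sums of tested members lean towards the brighter group. At an unadjusted p under 0.05, 8 were higher and 1 lower. The summed linear intensity of the 10 tested members was 373 and 409 on the intact heart arrays, against 227 and 222 on the peritoneal arrays. Myl2, the ventricular myosin light chain gene, read 6.25 and 6.77 on the intact heart arrays, against 4.14 and 4.14 on the peritoneal arrays, and was at least 4.23-fold higher (adjusted p = 7.87e-05). Both heart arrays were above background and neither peritoneal array was. Myl3, another myosin light chain, was at least 2.17-fold (adjusted p = 0.000402), and Cox6a2, a cytochrome oxidase subunit of muscle, at least 1.71-fold higher (adjusted p = 0.00272). Tnnc1, cardiac troponin C, and Nppa, atrial natriuretic peptide, were called, but lost their calls with either peritoneal array left out, which left 3 higher members. Without peritoneal cavity replicate 1 the adjusted p was 0.0749 for Tnnc1 and 0.234 for Nppa. Ryr2, the calcium release channel, was above background on no heart array and lower there by at least 1.49-fold (adjusted p = 0.00529; adjusted p = 0.051 without peritoneal cavity replicate 2). The myosin gene Myh6 and the myoglobin gene Mb were not called by limma. Both were called higher with replicate as a block (adjusted p = 0.0448 and 0.0486) and with a trended, robust variance model (adjusted p = 0.00477 and 0.0116). Other defining genes, namely Ckm, Ckmt2, Myl7, Tnni3 and Actc1, were above background on no array of either site. The part of these transcripts in the other differences was not tested.

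Markers of other cells that a heart or peritoneal sample could hold differed between lists. No heart array was above background for 14 of 16 endothelial, 10 of 17 fibroblast and 6 of 9 mesothelial markers. The same held for 4 of 11 smooth muscle and pericyte markers. For the peritoneal arrays these counts were 13, 16, 8 and 6. Of the endothelial markers 2 of 16 on the array were tested and none was called by limma, with 0 at an unadjusted p under 0.05 as well. Their summed intensity was 41 and 36.6 on the intact heart arrays, against 40.2 and 37.5 on the peritoneal arrays. Pecam1, Tek, Tie1, Vwf and Emcn were above background on no array of either site. Of the fibroblast markers 7 of 17 were tested and 2 were higher, with sums of 175 and 160.1 on the intact heart arrays, against 134 and 138 on the peritoneal arrays. These were the matrix genes Sparc (at least 1.49-fold, adjusted p = 0.00657; adjusted p = 0.0536 without peritoneal cavity replicate 2) and Bgn (at least 1.41-fold, adjusted p = 0.039; lost when any array other than intact heart replicate 2 was left out, highest adjusted p = 0.186 without peritoneal cavity replicate 2), both above background on the 2 heart arrays and on no peritoneal array. Another probe of Sparc went the opposite way. The count of higher members was 0 without peritoneal cavity replicate 2 and 1 without peritoneal cavity replicate 1, intact heart replicate 1 or either MI heart array. Col1a1, Col1a2 and Col3a1 were above background on no array of either site. Of 6 smooth muscle and pericyte genes, Mylk (at least 2.04-fold, adjusted p = 0.00447) and Rgs5 (at least 1.31-fold, adjusted p = 0.0494) were higher, and both lost their calls with either peritoneal array left out (adjusted p = 0.0533 without peritoneal cavity replicate 1 for Mylk and adjusted p = 0.187 without peritoneal cavity replicate 1 for Rgs5), Rgs5 also without intact heart replicate 1 (adjusted p = 0.205) or either MI heart array. That list had 4 members higher at an unadjusted p under 0.05. It summed to 234 and 219 on the intact heart arrays, against 158 and 151 on the peritoneal arrays. Myh11 and Pdgfrb were above background on no array of either site. Mesothelial genes (2 of 9 tested) had no call by limma and 1 member at an unadjusted p under 0.05.

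Among leukocyte lists, Hdc, the histamine-forming enzyme and the only tested mast cell marker, read 5.71 and 5.61 on the intact heart arrays, against 9.81 and 9.73 on the peritoneal arrays (-4.11 ± 0.27, adjusted p = 1.32e-05). It was much lower in the heart, without overlap. Hdc also belongs to the list of large peritoneal macrophage genes, and the other 13 mast cell and eosinophil genes on the array, among them Kit, Cpa3 and Mcpt4, were above background on no heart array and on at most 1 peritoneal array each. Of 11 tested monocyte genes, 1 was higher, 1 lower and 9 without a call, and 2 were lower with either MI heart array left out or with the 4 arrays fitted alone. Hp, which encodes haptoglobin, was lower by at least 6.01-fold (adjusted p = 0.000171), and Spn (CD43) was higher (at least 1.5-fold, adjusted p = 0.0498; above background on 1 peritoneal array) but lost its call when any array other than intact heart replicate 2 was left out (highest adjusted p = 0.224 without peritoneal cavity replicate 2). Ly6c1, Ccr2, Plac8 and S100a9 were above background on no array of either site. Csf3r, the receptor for granulocyte colony-stimulating factor, was lower (-1.42 ± 0.17, adjusted p = 0.000404), while the granule genes Mpo, Camp, Ngp and Mmp8 were above background at neither site. Without intact heart replicate 2, 1 neutrophil gene was higher. The summed linear intensity of the tested neutrophil genes was 132 and 111 on the intact heart arrays, against 152 and 150.3 on the peritoneal arrays. Ebf1, a B cell factor, was higher by 0.55 ± 0.16 (adjusted p = 0.0378), but lost its call when any array other than intact heart replicate 2 was left out (highest adjusted p = 0.142 without peritoneal cavity replicate 1), and the B cell genes Ms4a1 and Vpreb3 were above background at neither site. Prf1, which encodes perforin, was higher (1.28 ± 0.18, adjusted p = 0.00119), and the T cell genes Cd3d, Cd3e and Cd3g were above background on no array of either site. For the tested B cell genes that sum was 116 and 97.4 on the intact heart arrays, against 89.9 and 82.5 on the peritoneal arrays, and for the T and NK cell genes it was 97.4 and 99.6 on the intact heart arrays, against 45.5 and 54.6 on the peritoneal arrays. Of the 12 tested genes of small peritoneal macrophages and dendritic cells, 4 were higher, 1 lower and 7 without a call. The higher ones were led by Siglech, a lectin known from plasmacytoid dendritic cells and microglia (at least 2.45-fold, adjusted p = 0.000447; above background on 1 peritoneal array), and Plbd1 (at least 1.86-fold, adjusted p = 0.00359; adjusted p = 0.053 without peritoneal cavity replicate 2). The other higher members were Clec10a, a galactose lectin (0.75 ± 0.21, adjusted p = 0.0278), and Batf3, a factor of dendritic cells (at least 1.45-fold, adjusted p = 0.0425; above background on 1 peritoneal array), and Napsa, an aspartic protease, was the lower one (-0.67 ± 0.19, adjusted p = 0.0346). Napsa lost its call whichever array was left out, Batf3 when any array other than MI heart replicate 1 was left out, and Clec10a without intact heart replicate 2, peritoneal cavity replicate 2 or either MI heart array. With arrays scaled by their medians the list had 2 higher and 2 lower members. The count of higher members was 1 without peritoneal cavity replicate 2 and 2 without intact heart replicate 2 or MI heart replicate 2. Flt3, Xcr1 and Cd209a were above background at neither site. These lists summed to 1181 and 1284 on the intact heart arrays, against 961 and 788 on the peritoneal arrays for the dendritic list and 315 and 299.8 on the intact heart arrays, against 439 and 489 on the peritoneal arrays for the monocyte list, and their part in the results was not tested.

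Nearly all genes known from large peritoneal macrophages had lower levels in the intact heart. Of 23 tested members, 0 were higher in the intact heart, 22 lower and 1 without a call, with a median difference of -2.78. All of the called members lay in 1 direction, against 12.8% of all tests called lower. The summed linear intensity of the tested members was 579.8 and 572 on the intact heart arrays, against 10026 and 10762 on the peritoneal arrays, and 11 of the 24 members on the array were above background on no heart array, against 1 on no peritoneal array. The list was chosen with earlier results of these arrays known, so its direction is a description.

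Gata6, the transcription factor that sets this programme, read 4.21 and 4.22 on the intact heart arrays, against 6.39 and 5.90 on the peritoneal arrays, and was at least 3.14-fold lower (adjusted p = 0.000149). Both heart values lay at background. Rarb, a retinoic acid receptor, read 4.15 and 4.16 on the intact heart arrays, against 5.48 and 5.79 on the peritoneal arrays (at least 2.2-fold lower, adjusted p = 0.000427). F10, coagulation factor X, read 5.54 and 5.14 on the intact heart arrays, against 10.67 and 10.63 on the peritoneal arrays (-5.31 ± 0.28, adjusted p = 5.04e-06). It was above background at both sites and its 4 values fell into separate pairs. Saa3, an acute-phase apolipoprotein, read 4.48 and 4.96 on the intact heart arrays, against 10.95 and 11.37 on the peritoneal arrays (at least 85.8-fold lower, adjusted p = 2.44e-06). Slpi, a secreted inhibitor of neutrophil proteases, read 4.19 and 4.51 on the intact heart arrays, against 10.53 and 10.65 on the peritoneal arrays (at least 67.5-fold lower, adjusted p = 3.68e-06). Icam2, an adhesion ligand and a defining surface protein of these cells, read 4.31 and 4.49 on the intact heart arrays, against 9.72 and 9.65 on the peritoneal arrays (at least 36.3-fold lower, adjusted p = 3.15e-06). These 3 genes were above background on 1 of the 2 heart arrays only.

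Among members below background on both heart arrays, Selp, the adhesion molecule P-selectin, read 4.34 and 4.37 on the intact heart arrays, against 8.71 and 8.56 on the peritoneal arrays (at least 17.6-fold lower, adjusted p = 2.31e-06). Serpinb2, an inhibitor of plasminogen activators, was lower by at least 12.8-fold (adjusted p = 5.52e-06), Garnl3 at least 8.56-fold (adjusted p = 3.59e-06), and Arg1, arginase 1, at least 8.82-fold (adjusted p = 1.77e-05). Fn1, the matrix protein fibronectin, read 5.11 and 4.86 on the intact heart arrays, against 9.45 and 9.54 on the peritoneal arrays (-4.51 ± 0.17, adjusted p = 1.45e-06), with both sites above background. The member not called was Aspa, an enzyme of acetylaspartate breakdown (-0.55 ± 0.18, adjusted p = 0.056). On the MI heart arrays the members lay differently. F10 read 9.96 and 9.04 there and Saa3 11.01 and 10.23, nearer to the peritoneal than to the intact heart values, while Selp read 4.73 and 4.35, Garnl3 4.19 and 4.14, Icam2 5.66 and 4.84 and Serpinb2 5.21 and 4.57, nearer to those of the intact heart.

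Genes known from resident macrophages of the heart and of other connective tissue did not move as a block. Of 22 tested members, 13 were higher in the intact heart, 6 lower and 3 without a call, with a median difference of 0.90. Cd163, the scavenger receptor for haemoglobin and haptoglobin, read 10.55 and 10.41 on the intact heart arrays, against 7.39 and 6.48 on the peritoneal arrays (3.54 ± 0.27, adjusted p = 2.95e-05). Gas6, a bridge between apoptotic cells and their receptors, read 8.22 and 8.11 on the intact heart arrays, against 4.19 and 4.24 on the peritoneal arrays (at least 13.3-fold higher, adjusted p = 2.44e-06), with both peritoneal values at background. Cbr2, a carbonyl reductase, read 8.75 and 8.39 on the intact heart arrays, against 5.51 and 5.37 on the peritoneal arrays (3.13 ± 0.19, adjusted p = 8.46e-06). The heart arrays were the higher pair for each of the 3. Folr2, the folate receptor beta, read 7.72 and 7.55 on the intact heart arrays, against 4.71 and 4.98 on the peritoneal arrays (2.79 ± 0.17, adjusted p = 9e-06). Lyve1, the hyaluronan receptor, read 6.97 and 6.85 on the intact heart arrays, against 5.21 and 4.32 on the peritoneal arrays (at least 4.27-fold higher, adjusted p = 0.000686), with 1 of 2 peritoneal arrays above background.

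The lower members were led by C4b, complement component 4, which read 8.76 and 8.47 on the intact heart arrays, against 10.88 and 11.18 on the peritoneal arrays (-2.42 ± 0.23, adjusted p = 0.000112). Ednrb, an endothelin receptor, differed by -2.38 ± 0.18 (adjusted p = 3.3e-05), and Fcna, a ficolin that binds microbial sugars, by -2.34 ± 0.21 (adjusted p = 9.57e-05). Ltc4s, the leukotriene C4 synthase, was lower (-1.61 ± 0.23, adjusted p = 0.00107). Timd4, a receptor for phosphatidylserine on dying cells, read 6.38 and 6.24 on the intact heart arrays, against 7.51 and 7.28 on the peritoneal arrays (-1.08 ± 0.20, adjusted p = 0.00411; adjusted p = 0.0582 without peritoneal cavity replicate 1), and was above background on all 4 arrays. Ccl24, a chemokine for eosinophils, was lower as well (-0.86 ± 0.17, adjusted p = 0.00568). Pf4, platelet factor 4 (-0.45 ± 0.24, adjusted p = 0.207), Ccl8, a monocyte chemokine (0.13 ± 0.16, adjusted p = 0.581), and Trem2, a lipid receptor (0.80 ± 0.32, adjusted p = 0.0977), were not called. Trem2 was called higher without peritoneal cavity replicate 1 (adjusted p = 0.0351).

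**Figure D2:**
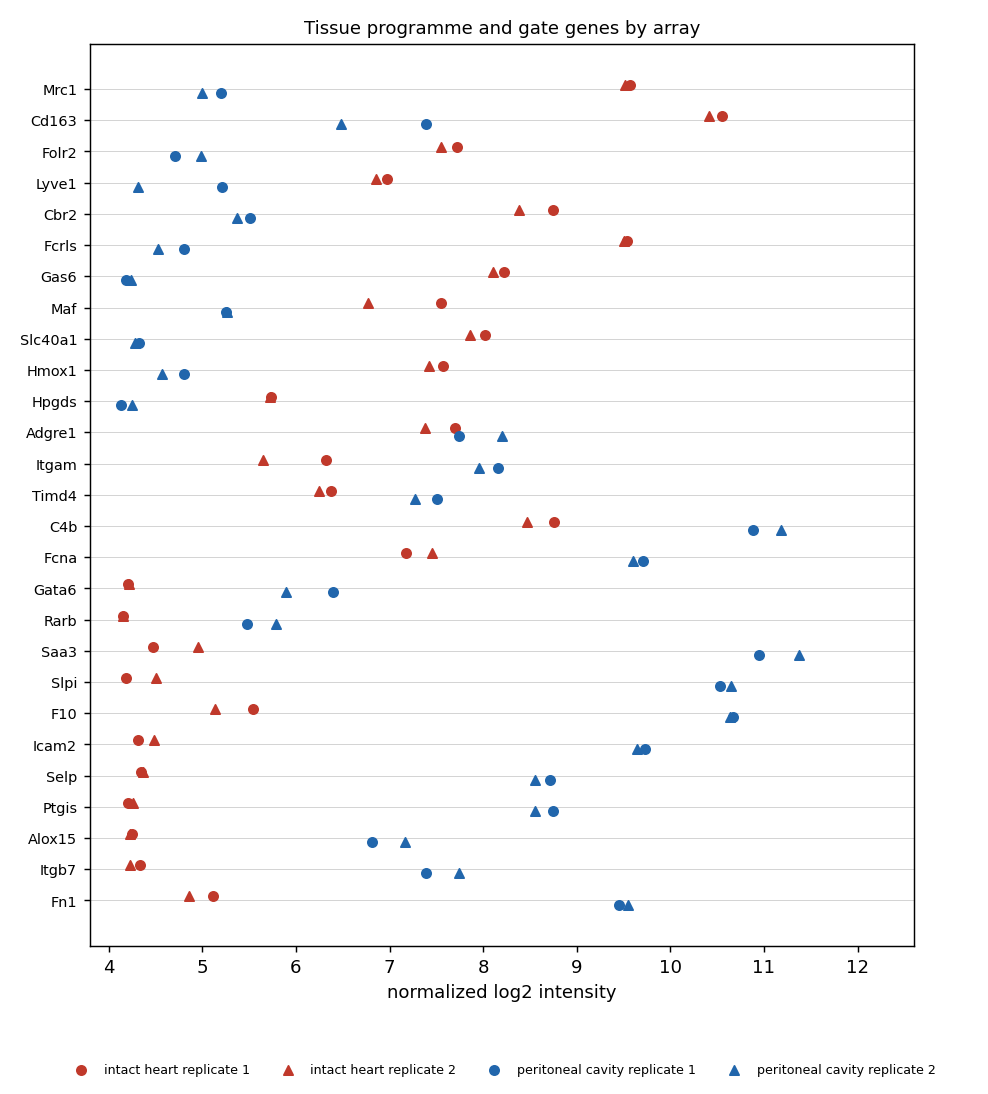
Normalized log2 intensity (horizontal axis) of 27 genes of the heart and peritoneal programmes and of the gate, with red symbols for the intact heart and blue symbols for the peritoneal cavity, circles for replicate 1 and triangles for replicate 2. The sites form separate pairs for Mrc1, Cd163 and Gas6 (heart higher) and for Saa3, F10 and Fn1 (heart lower), and come close for Adgre1.

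Transcription factor genes of macrophages were higher more often than lower. Of 26 tested members, 11 were higher in the intact heart, 3 lower and 12 without a call, with a median difference of 0.49. Besides Gata6 and Rarb, Bhlhe40 was lower, a repressor of the basic helix-loop-helix family (at least 3.18-fold, adjusted p = 0.000957; above background on 1 heart array). Runx1, a factor of blood cell development, read 7.51 and 7.50 on the intact heart arrays, against 4.82 and 4.87 on the peritoneal arrays (2.66 ± 0.15, adjusted p = 6.51e-06). Maf, a factor of tissue-resident macrophages, read 7.56 and 6.77 on the intact heart arrays, against 5.26 and 5.27 on the peritoneal arrays (1.90 ± 0.24, adjusted p = 0.000645), and Mef2c, a factor of muscle and myeloid cells, differed by 1.86 ± 0.24 (adjusted p = 0.000634). The heart arrays were higher than both peritoneal arrays for each of them, although the 2 heart values of Maf lay apart. The count of higher members was 7 with either peritoneal array left out and also 7 with arrays scaled by their medians.

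Heat-shock chaperones, which hold and refold damaged proteins, were higher in the intact heart almost throughout. Many of them, but not all, are switched on by heat-shock factor 1. Of 15 tested members, 14 were higher in the intact heart, 0 lower and 1 without a call, with a median difference of 2.35, against 12.5% of all tests called higher. The summed linear intensity was 9096 and 11529.7 on the intact heart arrays, against 1681 and 1873 on the peritoneal arrays. Hspa1a, the inducible HSP70 chaperone, read 10.60 and 11.10 on the intact heart arrays, against 5.32 and 4.72 on the peritoneal arrays (5.83 ± 0.24, adjusted p = 2.31e-06), a 56.7-fold difference. Hspa1b, its near-identical copy, read 9.61 and 9.32 on the intact heart arrays, against 4.34 and 4.32 on the peritoneal arrays (at least 32.8-fold higher, adjusted p = 1.42e-06). Probes of such close copies may bind RNA of either, so the split between them is uncertain. Hsph1, a nucleotide exchange factor for HSP70, read 10.20 and 10.62 on the intact heart arrays, against 6.57 and 6.05 on the peritoneal arrays (4.10 ± 0.22, adjusted p = 5.04e-06), and Bag3, an HSP70 partner in the removal of damaged protein, read 9.47 and 9.93 on the intact heart arrays, against 6.16 and 5.75 on the peritoneal arrays (3.74 ± 0.21, adjusted p = 6.8e-06). The sites were far apart for all 4 genes. The member not called was Ahsa1, an activator of HSP90 (0.09 ± 0.23, adjusted p = 0.818). On the MI heart arrays Hspa1a read 9.003 and 9.01 and Hspb1, a small heat-shock protein, 5.80 and 4.98. Hspb1 was at least 7.4-fold higher in the intact heart than in the peritoneal cavity (adjusted p = 6.23e-05; above background on 1 peritoneal array).

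Promoters of 2 of these genes are shown because the element of heat-shock factor 1 can be read in them. They span 250 bases before to 50 after the gene start, from RefSeq on build GRCm38.p6. The element searched was GAANNTTC on both strands (its letters read the same on either), 2 facing units of the heat-shock element. It was found in 10 of 16 promoters of the 13 tested members that matched the table (62.5%), against 7.86% of all 32851 promoters and 5.87% of those of all tested genes. The promoters of Hspa5, Stip1 and Dnajb1, which were called higher, held no match. Capitals mark the matches, none of which overlaps another motif searched. Hspa1a (chr17:34972107-34972406, reverse strand) has 1 match, and the promoter of Hspa1b is identical to it at 296 of 300 positions. Hspb1 (chr5:135887669-135887968, forward strand) has 2 matches. A match is a description of the letters and not of binding.
Hspa1a: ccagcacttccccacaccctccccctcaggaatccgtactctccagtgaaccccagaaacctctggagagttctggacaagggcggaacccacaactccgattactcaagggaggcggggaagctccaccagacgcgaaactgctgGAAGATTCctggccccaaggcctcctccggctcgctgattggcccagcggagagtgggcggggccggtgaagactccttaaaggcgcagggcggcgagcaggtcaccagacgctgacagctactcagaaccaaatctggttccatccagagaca
Hspb1: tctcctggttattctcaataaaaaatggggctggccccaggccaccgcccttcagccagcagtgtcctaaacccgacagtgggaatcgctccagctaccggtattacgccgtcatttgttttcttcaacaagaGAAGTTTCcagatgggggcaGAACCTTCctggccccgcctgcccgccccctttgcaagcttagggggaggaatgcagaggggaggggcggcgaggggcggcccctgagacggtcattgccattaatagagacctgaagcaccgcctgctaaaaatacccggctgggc

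Immediate early genes, transcription factor genes that need no new protein to be induced by growth factors, danger signals or mechanical stimuli, were also higher in the intact heart. Of 20 tested members, 18 were higher in the intact heart, 0 lower and 2 without a call, with a median difference of 1.85. The summed intensity was 10678 and 10308 on the intact heart arrays, against 2775 and 2881 on the peritoneal arrays. Fosb, a partner of Jun proteins in AP-1, read 8.78 and 8.76 on the intact heart arrays, against 4.35 and 4.39 on the peritoneal arrays (at least 20.2-fold higher, adjusted p = 1.45e-06). Egr3 read 8.71 and 8.22 on the intact heart arrays, against 4.26 and 4.33 on the peritoneal arrays (at least 16.3-fold higher, adjusted p = 4.2e-06) and Egr2, its relative with a role in alternative activation, 9.12 and 8.63 on the intact heart arrays, against 5.24 and 5.35 on the peritoneal arrays (3.58 ± 0.20, adjusted p = 6.71e-06). Atf3, a stress-induced repressor, read 7.15 and 7.13 on the intact heart arrays, against 4.12 and 4.26 on the peritoneal arrays (at least 6.53-fold higher, adjusted p = 4.81e-06). Neither peritoneal array was above background for Fosb and Atf3, 1 was for Egr3 and both were for Egr2. The heart arrays were high in every case, and the groups did not overlap. The members not called were Ier2 (-0.26 ± 0.15, adjusted p = 0.252) and Klf2, a flow-responsive factor (-0.49 ± 0.24, adjusted p = 0.165). With arrays scaled by their medians, Klf2 was called lower. Nr4a1 was above background on no array of either site.

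A list of MAP kinase phosphatases and RNA decay factors, with feedback and stress genes such as Errfi1 and Gadd45g, was mostly higher too. Of 17 tested members, 12 were higher in the intact heart, 0 lower and 5 without a call, with a median difference of 1.24. Gadd45g, a growth arrest and stress protein, read 9.05 and 8.65 on the intact heart arrays, against 4.71 and 4.77 on the peritoneal arrays (4.11 ± 0.18, adjusted p = 2.34e-06). Errfi1, an inhibitor of epidermal growth factor receptors, read 8.44 and 9.22 on the intact heart arrays, against 4.81 and 4.78 on the peritoneal arrays (4.04 ± 0.24, adjusted p = 8.46e-06), and Dusp16, a phosphatase of the JNK and p38 kinases, 7.74 and 7.85 on the intact heart arrays, against 4.71 and 4.86 on the peritoneal arrays (3.01 ± 0.22, adjusted p = 2.45e-05). All 3 were above background on every array of both sites. Gadd45b was higher by at least 5.65-fold (adjusted p = 3.43e-05). Dusp6, a phosphatase for ERK (-0.63 ± 0.22, adjusted p = 0.0647), Gadd45a (-0.42 ± 0.27, adjusted p = 0.289), Zfp36l2 (-0.07 ± 0.20, adjusted p = 0.844), the inhibitor gene Spry2 (0.06 ± 0.16, adjusted p = 0.821) and Dusp4 (0.23 ± 0.18, adjusted p = 0.382) were not called. Dusp6 was called lower with arrays scaled by their medians and without intact heart replicate 1 (adjusted p = 0.0168). How the cells were prepared is not given in the sources used here, and for these genes too tissue and preparation cannot be told apart.

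**Figure D3:**
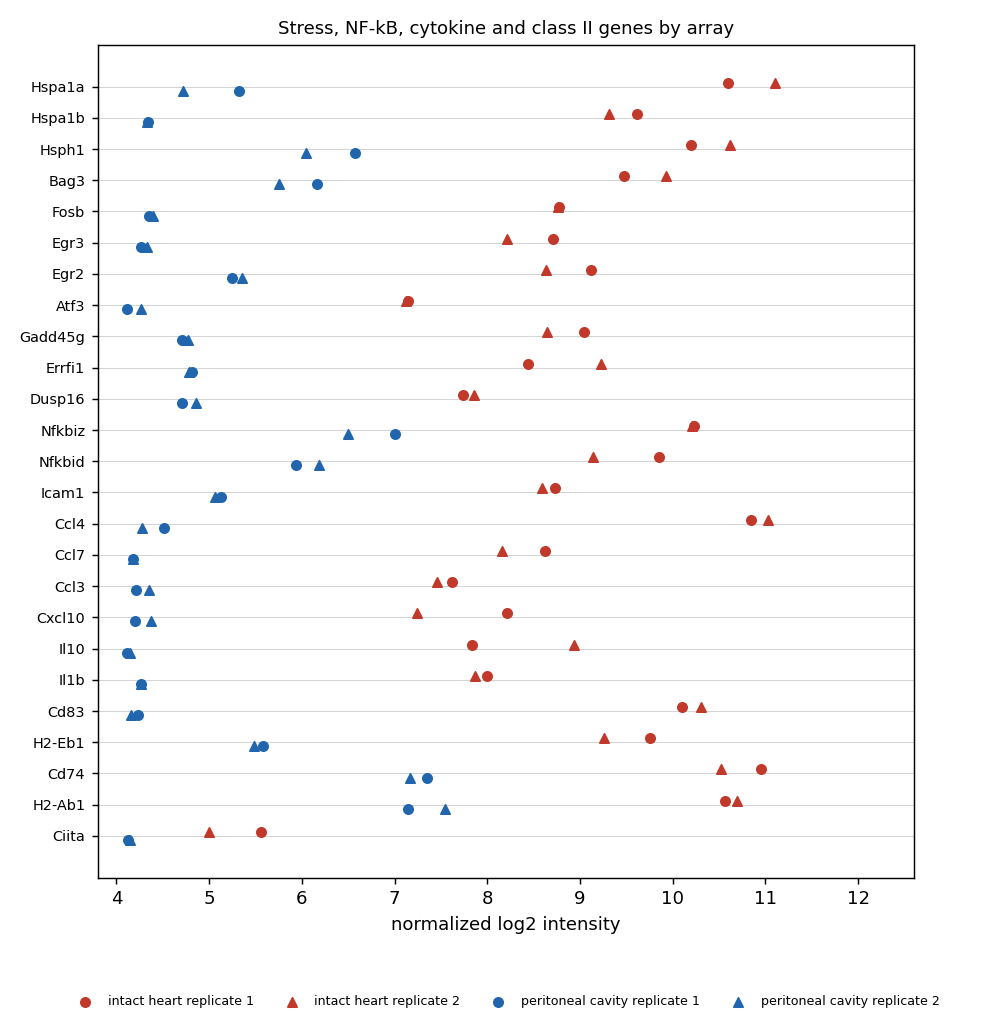
Normalized log2 intensity (horizontal axis) of 25 stress, NF-kB, chemokine, cytokine and class II genes, with red symbols for the intact heart and blue symbols for the peritoneal cavity, circles for replicate 1 and triangles for replicate 2. Every gene drawn has both heart arrays above both peritoneal arrays, and peritoneal values near 4 are at background.

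Subunits, targets and inhibitors of NF-kB, the transcription factor of innate sensing, were higher in the intact heart. Of 17 tested members, 15 were higher in the intact heart, 0 lower and 2 without a call, with a median difference of 1.50, and the summed intensity was 5091 and 4266 on the intact heart arrays, against 1386 and 1234 on the peritoneal arrays. Icam1, an adhesion ligand and classical target, read 8.73 and 8.59 on the intact heart arrays, against 5.13 and 5.06 on the peritoneal arrays (3.57 ± 0.15, adjusted p = 2.34e-06). Nfkbiz, a nuclear regulator of secondary response genes, differed by 3.47 ± 0.24 (adjusted p = 1.77e-05). Nfkbid, a related nuclear inhibitor, read 9.85 and 9.14 on the intact heart arrays, against 5.93 and 6.18 on the peritoneal arrays (3.44 ± 0.24, adjusted p = 1.78e-05). All were above background at both sites with no overlap between them. Traf1, an adaptor of tumour necrosis factor receptors, was higher by at least 4.07-fold (adjusted p = 0.000107). Nfkbia, the inhibitor that holds NF-kB in the cytoplasm and is its direct target, differed by 1.53 ± 0.25 (adjusted p = 0.00241). Tnip1 (0.26 ± 0.20, adjusted p = 0.361) and Cyld (-0.12 ± 0.21, adjusted p = 0.72), inhibitors of ubiquitin signals, were not called.

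An NF-kB site was found in 11 of 19 promoters of the 14 matched members (57.9%), on either strand, against 8.46% of all promoters and 10.4% of those of tested genes. The promoters of Icam1, Traf1, Nfkbib, Birc3 and Rela, which were called higher, held no match. Those of Tnip1 and Cyld, which were not called, held 3 and 1. A gene with several promoters was counted once for each of them. The promoters of Nfkbia (chr12:55492598-55492897, reverse strand; 1 match) and Nfkbid (chr7:30422156-30422455, forward strand; 2 matches, 1 of 3 promoters in the table) are shown as an inhibitor each of cytoplasm and nucleus, with the matches in capitals.
Nfkbia: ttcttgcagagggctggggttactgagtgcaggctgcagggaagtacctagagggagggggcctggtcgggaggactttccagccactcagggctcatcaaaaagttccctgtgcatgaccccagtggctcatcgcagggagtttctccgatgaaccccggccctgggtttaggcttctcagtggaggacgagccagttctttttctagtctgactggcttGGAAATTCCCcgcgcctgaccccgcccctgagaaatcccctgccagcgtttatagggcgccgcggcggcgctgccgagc
Nfkbid: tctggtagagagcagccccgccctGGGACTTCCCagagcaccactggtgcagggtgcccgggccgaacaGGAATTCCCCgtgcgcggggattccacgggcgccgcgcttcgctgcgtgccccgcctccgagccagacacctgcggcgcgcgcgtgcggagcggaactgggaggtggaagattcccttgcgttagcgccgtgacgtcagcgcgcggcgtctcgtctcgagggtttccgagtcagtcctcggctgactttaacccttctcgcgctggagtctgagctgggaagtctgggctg

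Chemokine genes were called in both directions. In the CC family, of 12 tested members, 5 were higher in the intact heart, 1 lower and 6 without a call, with a median difference of 0.14. Ccl4, a chemokine made by activated macrophages, read 10.84 and 11.03 on the intact heart arrays, against 4.51 and 4.27 on the peritoneal arrays (at least 88.7-fold higher, adjusted p = 2.28e-07; above background on 1 peritoneal array). Ccl7, a ligand of the monocyte receptor CCR2, read 8.62 and 8.16 on the intact heart arrays, against 4.18 and 4.18 on the peritoneal arrays (at least 15.5-fold higher, adjusted p = 4.35e-06). Ccl3 read 7.62 and 7.46 on the intact heart arrays, against 4.21 and 4.35 on the peritoneal arrays (at least 8.61-fold higher, adjusted p = 3.68e-06), and Ccl2, the main monocyte chemokine, was higher by at least 6.26-fold (adjusted p = 5.52e-06). Neither peritoneal array was above background for Ccl7, Ccl3 and Ccl2. The lower member was Ccl24, described above, and without intact heart replicate 2 there were 2.

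In the CXC family, of 9 tested members, 5 were higher in the intact heart, 2 lower and 2 without a call, with a median difference of 0.95. Cxcl10, an interferon-induced chemokine for T cells, read 8.21 and 7.24 on the intact heart arrays, against 4.20 and 4.37 on the peritoneal arrays (at least 9.83-fold higher, adjusted p = 8.48e-05), with the heart arrays apart from each other but both above background. Cxcl1, a neutrophil chemokine, read 11.65 and 11.80 on the intact heart arrays, against 8.77 and 8.98 on the peritoneal arrays (2.85 ± 0.18, adjusted p = 1.12e-05). Cxcl13, the chemokine that draws B cells into body cavities, read 4.20 and 4.24 on the intact heart arrays, against 7.93 and 7.57 on the peritoneal arrays (at least 9.52-fold lower, adjusted p = 3.59e-06). It was at background in the heart. Cxcl12, which retains leukocytes through CXCR4, was lower too (-0.85 ± 0.16, adjusted p = 0.00452). Cxcl16, a membrane-bound chemokine, was higher (2.23 ± 0.19, adjusted p = 6.23e-05). Pf4 and Cxcl9, another interferon-induced member (0.91 ± 0.38, adjusted p = 0.116), were not called. Cxcl9 was called higher when the 4 arrays were fitted alone and with either MI heart array left out.

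Of the chemoattractant receptors, 4 of 9 were higher, 1 lower and 4 without a call, with a median difference of 0.13. Cxcr4, the receptor for CXCL12, was at least 9.03-fold (adjusted p = 2.5e-06), and Cx3cr1, the fractalkine receptor, at least 4.66-fold higher (adjusted p = 1.24e-05), both at background on the peritoneal arrays. Ccrl2, a receptor that presents chemerin, differed by 2.24 ± 0.17 (adjusted p = 2.73e-05). Fpr2, a receptor for formylated peptides, was lower (-1.90 ± 0.24, adjusted p = 0.000539). Cmklr1, the chemerin receptor, was not called (-0.53 ± 0.18, adjusted p = 0.0584), and its difference was -0.72 without intact heart replicate 1. Ltb4r1 (-0.06 ± 0.15, adjusted p = 0.825), Ccr2 (0.02 ± 0.15, adjusted p = 0.928) and C3ar1 (0.13 ± 0.25, adjusted p = 0.744) were not called either. Ccr2 was above background on no array of either site, so its difference compares background values. C5ar1, the receptor for the complement fragment C5a, was called (1.09 ± 0.23, adjusted p = 0.00896) but not without peritoneal cavity replicate 2 or intact heart replicate 1 (adjusted p = 0.0765 without peritoneal cavity replicate 2 and adjusted p = 0.0562 without intact heart replicate 1).

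The called cytokine genes, some of which raise and some of which limit inflammation, were higher in the heart. Of 13 tested members, 7 were higher in the intact heart, 0 lower and 6 without a call, with a median difference of 1.57. Il10, which restrains macrophage activation, read 7.84 and 8.93 on the intact heart arrays, against 4.11 and 4.14 on the peritoneal arrays (at least 15.5-fold higher, adjusted p = 3.75e-05), with the heart arrays apart by more than 1 unit of log2. Il1b, a secreted pyrogen, read 7.999 and 7.87 on the intact heart arrays, against 4.26 and 4.26 on the peritoneal arrays (at least 11.3-fold higher, adjusted p = 6.02e-06). Neither gene was above background in the peritoneal cavity. Il1a read 7.68 and 7.89 on the intact heart arrays, against 5.20 and 4.74 on the peritoneal arrays (2.82 ± 0.19, adjusted p = 1.78e-05), and Il1rn, the antagonist of their receptor, was higher by at least 4.2-fold (adjusted p = 6.15e-05), with 1 peritoneal array above background. No member was lower, except for 1 without intact heart replicate 1 and 1 with arrays scaled by their medians.

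Class II antigen presentation genes were higher in the intact heart, and class I genes did not show a call. For class II, of 13 tested members, 9 were higher in the intact heart, 0 lower and 4 without a call, with a median difference of 1.14, and the summed intensity was 5119 and 4500.4 on the intact heart arrays, against 759 and 761 on the peritoneal arrays. H2-Eb1, a class II beta chain, read 9.75 and 9.26 on the intact heart arrays, against 5.58 and 5.48 on the peritoneal arrays (3.97 ± 0.20, adjusted p = 3.75e-06). Cd74, the invariant chain that guides class II molecules to endosomes, read 10.95 and 10.52 on the intact heart arrays, against 7.35 and 7.16 on the peritoneal arrays (3.48 ± 0.19, adjusted p = 5.52e-06), and H2-Ab1, another beta chain, 10.57 and 10.69 on the intact heart arrays, against 7.14 and 7.54 on the peritoneal arrays (3.29 ± 0.18, adjusted p = 5.78e-06). H2-Aa, an alpha chain, was higher by at least 4.7-fold (adjusted p = 0.000112), with 1 peritoneal array above background. The sites were separate for all 4. Ciita, the master regulator of these genes, read 5.55 and 4.99 on the intact heart arrays, against 4.12 and 4.14 on the peritoneal arrays (at least 1.79-fold higher, adjusted p = 0.0108), a call that was lost without intact heart replicate 1 or either peritoneal array (highest adjusted p = 0.0998 without peritoneal cavity replicate 2). The protease gene Ctss (0.04 ± 0.16, adjusted p = 0.882), the thiol reductase gene Ifi30 (-0.18 ± 0.19, adjusted p = 0.512), H2-Eb2 (0.02 ± 0.19, adjusted p = 0.955) and the factor gene Rfxap (0.45 ± 0.21, adjusted p = 0.153) were not called. Without peritoneal cavity replicate 1, 5 members remained called.

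Class II promoters carry an inverted CCAAT box, ATTGG, as part of a conserved module, and those of an alpha and a beta chain are shown for it. ATTGG or its complement CCAAT was found in 7 of 10 promoters of the 9 matched members (70.0%), against 37.4% of all promoters and 37.3% of those of tested genes, so these short letters were common everywhere. H2-Eb1 (chr17:34305617-34305916, forward strand) has 2 matches and H2-Aa (chr17:34287774-34288073, reverse strand) has 1, in capitals.
H2-Eb1: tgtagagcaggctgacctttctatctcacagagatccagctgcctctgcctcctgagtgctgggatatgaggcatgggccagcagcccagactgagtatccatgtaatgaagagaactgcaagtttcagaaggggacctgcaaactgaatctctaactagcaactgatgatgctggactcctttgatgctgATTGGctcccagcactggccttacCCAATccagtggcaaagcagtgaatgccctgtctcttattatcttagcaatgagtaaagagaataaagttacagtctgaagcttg
H2-Aa: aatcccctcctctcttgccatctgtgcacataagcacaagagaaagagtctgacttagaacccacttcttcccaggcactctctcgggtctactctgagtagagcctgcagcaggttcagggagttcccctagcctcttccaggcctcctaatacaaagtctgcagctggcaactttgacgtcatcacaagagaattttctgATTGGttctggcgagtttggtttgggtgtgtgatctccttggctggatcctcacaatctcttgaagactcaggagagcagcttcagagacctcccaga

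Of 15 tested class I and immunoproteasome genes, limma called 0, with 2 higher and 1 lower at an unadjusted p under 0.05 and a median difference of -0.01. A single member was called higher with either MI heart array left out, and 1 lower without intact heart replicate 2, without background correction or with the series matrix values. Their summed intensity was 2794 and 2670.5 on the intact heart arrays, against 2964 and 3124 on the peritoneal arrays. Costimulatory genes were mostly higher (7 of 12, with 1 lower, 4 without a call and a median difference of 0.82). Cd83, a surface protein of activated antigen-presenting cells, read 10.10 and 10.31 on the intact heart arrays, against 4.23 and 4.16 on the peritoneal arrays (at least 54.6-fold higher, adjusted p = 2.28e-07). Tnfsf9, the ligand of 4-1BB on T cells, was higher by at least 2.81-fold (adjusted p = 0.000166). Vsig4, a complement receptor that restrains T cells, was lower (-1.93 ± 0.23, adjusted p = 0.000416). Cd86, a ligand of CD28, was higher (1.05 ± 0.19, adjusted p = 0.00429; adjusted p = 0.0502 without peritoneal cavity replicate 2). The count of higher members was 4 without peritoneal cavity replicate 1, 2 without replicate 2 and 3 with arrays scaled by their medians. Cd48 (0.06 ± 0.21, adjusted p = 0.855), Cd274 (0.27 ± 0.25, adjusted p = 0.471) and Vsir (-0.43 ± 0.16, adjusted p = 0.0792) were not called.

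**Figure D4:**
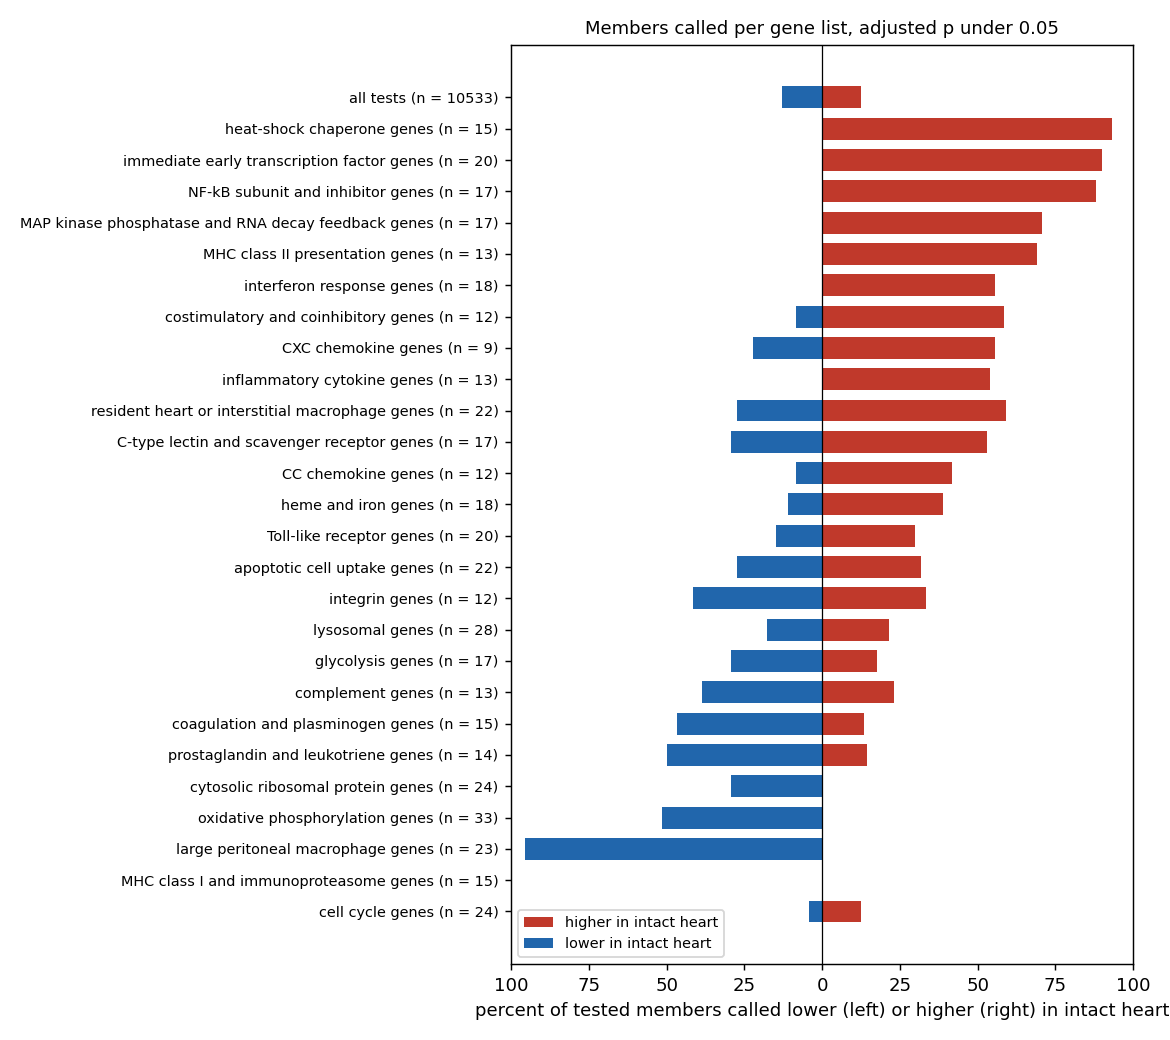
Percent of tested members called lower (left, blue) and higher (right, red) in the intact heart for 26 gene lists, with the number of tested members beside each name and the same percentages over all 10533 tests in the top row (12.5 higher, 12.8 lower). Heat-shock, immediate early and NF-kB genes were called higher in 88.2 to 93.3 percent of tested members, large peritoneal macrophage genes were called lower in 95.7 percent, and no class I gene was called.

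Interferon response genes were higher where they were called. Of 18 tested members, 10 were higher in the intact heart, 0 lower and 8 without a call, with a median difference of 0.74. Besides Cxcl10, the antiviral genes Rsad2 (at least 5.01-fold, adjusted p = 1.28e-05) and Ifit2 (at least 4.69-fold, adjusted p = 1.32e-05) were higher and at background on the peritoneal arrays, and Ifit3, of the same family, differed by 1.79 ± 0.19 (adjusted p = 0.000206). Without peritoneal cavity replicate 1 the count was 5, and without replicate 2 it was 6. In the Toll-like receptor pathway, of 20 tested members, 6 were higher in the intact heart, 3 lower and 11 without a call, with a median difference of 0.22. The lower ones were 15% of the members, near the 12.8% of all tests. Tlr2, the receptor for bacterial lipoproteins, read 7.41 and 8.01 on the intact heart arrays, against 5.28 and 5.48 on the peritoneal arrays (2.33 ± 0.22, adjusted p = 0.000131). Tlr9, the receptor for bacterial DNA, was higher by at least 2.72-fold (adjusted p = 0.000286). The kinase gene Irak2 was higher (1.47 ± 0.19, adjusted p = 0.000736). Tlr13, a receptor for bacterial ribosomal RNA, was lower (-1.18 ± 0.23, adjusted p = 0.00567), as were Tirap (-0.78 ± 0.20, adjusted p = 0.0228), an adaptor whose other probe went the opposite way, and Irak1 (-0.72 ± 0.19, adjusted p = 0.0238). All 3 lost their calls with either peritoneal array left out (adjusted p = 0.0715 without peritoneal cavity replicate 1, and adjusted p = 0.117 and 0.102 there for Tirap and Irak1).

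Surface receptors for sugars and lipoproteins were called in both directions. Among C-type lectins and scavenger receptors, of 17 tested members, 9 were higher in the intact heart, 5 lower and 3 without a call, with a median difference of 0.71. Beside Mrc1 and Cd163, Clec4n, dectin-2, was higher by at least 5.51-fold (adjusted p = 0.000427), with 1 peritoneal array above background. Clec4d, another lectin for fungal and mycobacterial glycolipids, went the other way (-2.67 ± 0.27, adjusted p = 0.000159), as did its partner Clec4e, Mincle, which was lower by at least 4.66-fold (adjusted p = 0.00347; above background on 1 heart array; adjusted p = 0.0509 without peritoneal cavity replicate 1; adjusted p = 0.0687 without peritoneal cavity replicate 2). Marco, a scavenger receptor for bacteria, read 4.33 and 4.42 on the intact heart arrays, against 7.08 and 6.61 on the peritoneal arrays (at least 5.1-fold lower, adjusted p = 3.38e-05), and Msr1, the scavenger receptor for modified lipoproteins, was lower (-1.79 ± 0.15, adjusted p = 6.88e-05). Scarb2, a lysosomal transporter, was lower (-0.81 ± 0.16, adjusted p = 0.00547), although another probe of the gene went the opposite way. Scarb1 (-0.38 ± 0.22, adjusted p = 0.241) and Colec12 (-0.17 ± 0.17, adjusted p = 0.516) were not called. Of the Fc receptor genes 3 of 8 were higher, 0 lower and 5 without a call by limma (1 lower at an unadjusted p under 0.05). With arrays scaled by their medians 1 was higher and 1 lower. Fcrls, a mouse receptor-like scavenger gene known from microglia, read 9.53 and 9.50 on the intact heart arrays, against 4.81 and 4.52 on the peritoneal arrays (4.85 ± 0.26, adjusted p = 4.81e-06). The others, the inhibitory receptor Fcgr2b (0.83 ± 0.24, adjusted p = 0.0333) and the neonatal receptor Fcgrt (0.88 ± 0.23, adjusted p = 0.0247), differed by less. Fcgr2b lost its call when any array of the intact heart or peritoneal cavity was left out (highest adjusted p = 0.216 without peritoneal cavity replicate 1). Fcgrt lost it when any array other than peritoneal cavity replicate 1 was left out (highest adjusted p = 0.118 without peritoneal cavity replicate 2). The count of higher Fc receptor genes was 1 without peritoneal cavity replicate 2 or intact heart replicate 1.

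Genes for the uptake of apoptotic cells had both directions too (7 of 22 higher, 6 lower, 9 without a call, median difference -0.23). Gas6 and its receptor gene Axl were both higher, and Axl read 8.55 and 8.01 on the intact heart arrays, against 5.52 and 5.58 on the peritoneal arrays (2.73 ± 0.21, adjusted p = 3.45e-05). Its relative Mertk was among those not called. Stab1, a receptor for phosphatidylserine and for waste products of matrix, read 8.74 and 7.76 on the intact heart arrays, against 6.61 and 5.81 on the peritoneal arrays (2.04 ± 0.35, adjusted p = 0.00308; adjusted p = 0.0609 without peritoneal cavity replicate 2). Thbs1, thrombospondin 1, was lower by at least 8.66-fold (adjusted p = 3.28e-05), with 1 heart array above background. Itgav, the integrin chain that binds milk fat globule protein on dying cells, was higher (1.88 ± 0.26, adjusted p = 0.00106). Pros1, protein S, a bridge for Mertk and Axl, was lower (-1.05 ± 0.20, adjusted p = 0.00589).

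Complement and coagulation genes were lower in the intact heart more often than higher. Of 13 complement genes, 5 were lower, 3 higher and 5 without a call, with a median difference of -0.33. After C4b and Itgam the lower members were Vsig4, Cfp, which encodes properdin (-1.79 ± 0.26, adjusted p = 0.00124), and Cfb, factor B of the alternative pathway (-1.55 ± 0.18, adjusted p = 0.000416). C5ar2, a decoy receptor for C5a, was higher (1.85 ± 0.22, adjusted p = 0.000407), as was C2 of the classical pathway (at least 1.82-fold, adjusted p = 0.00104). The chains of C1q, which start the classical pathway, were not called: C1qa differed by -0.33 ± 0.15 (adjusted p = 0.154), C1qb by -0.19 ± 0.17 (adjusted p = 0.464) and C1qc by -0.33 ± 0.16 (adjusted p = 0.163). C1qa and C1qc were called lower without background correction and with the series matrix values. Of 15 coagulation and plasminogen genes, 7 were lower, 2 higher and 6 without a call, with a median of -0.35. The higher ones were 13.3% of the members, near the 12.5% of all tests. F10, Selp, Serpinb2 and Thbs1 made up the largest decreases. Plau, urokinase, which activates plasminogen, read 9.87 and 10.21 on the intact heart arrays, against 6.59 and 6.05 on the peritoneal arrays (3.72 ± 0.23, adjusted p = 1.07e-05), higher in the heart without overlap. F13a1, the fibrin-crosslinking subunit of factor XIII, was higher (1.70 ± 0.17, adjusted p = 0.000154).

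Integrin genes went both ways. Of 12 tested, 4 were higher, 5 lower and 3 without a call, with 3 lower with either peritoneal array left out. Itgb7, a chain for homing to mucosa, read 4.33 and 4.22 on the intact heart arrays, against 7.39 and 7.74 on the peritoneal arrays (at least 8.38-fold lower, adjusted p = 2.48e-05), at background in the heart. Itga6, a laminin receptor chain, was lower by at least 4.51-fold (adjusted p = 0.00129), with 1 heart array above background. Itgb5, a partner of Itgav, was higher by at least 2.83-fold (adjusted p = 0.000899), and Itga5, the fibronectin receptor chain, differed by 1.33 ± 0.15 (adjusted p = 0.000307). The leukocyte integrin genes Itgb2 (-0.56 ± 0.22, adjusted p = 0.0899), Itgal (0.41 ± 0.23, adjusted p = 0.228) and Itgax (0.28 ± 0.18, adjusted p = 0.289) were not called. In the matrix and protease list, 5 of 21 members were higher, 6 lower and 10 without a call, and 3 were higher without peritoneal cavity replicate 2. Besides Fn1 and Thbs1, the lower members were led by Ecm1, an extracellular matrix protein that read 6.26 and 5.87 on the intact heart arrays, against 9.18 and 9.32 on the peritoneal arrays (-3.19 ± 0.18, adjusted p = 6.71e-06), and Emilin2, an elastin interface protein (-3.13 ± 0.20, adjusted p = 1.33e-05). Mmp13, a collagenase, was higher by at least 13.7-fold (adjusted p = 8.72e-06), with 1 peritoneal array above background, and Mmp12, the elastase of macrophages, at least 3.91-fold (adjusted p = 0.00014).

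Genes of lipid mediators were more often lower than higher in the intact heart. Of 14 prostaglandin and leukotriene genes, 7 were lower, 2 higher and 5 without a call, with a median difference of -0.44. Ptgis, the prostacyclin synthase, read 4.20 and 4.26 on the intact heart arrays, against 8.74 and 8.56 on the peritoneal arrays (at least 17.8-fold lower, adjusted p = 1.45e-06), and Ptgir, the receptor for prostacyclin, was lower by at least 5.4-fold (adjusted p = 1.32e-05). Alox15, a lipoxygenase that makes resolving lipids, read 4.25 and 4.23 on the intact heart arrays, against 6.81 and 7.17 on the peritoneal arrays (at least 5.63-fold lower, adjusted p = 1.55e-05). The heart arrays were at background for all 3. Hpgds, which makes prostaglandin D, was at least 2.46-fold (adjusted p = 0.000304), and Hpgd, which degrades prostaglandins, at least 2.67-fold higher (adjusted p = 0.00065). Ptgs2, the inducible cyclooxygenase, was not called (0.40 ± 0.24, adjusted p = 0.252), nor was Tbxas1, the thromboxane synthase (-0.22 ± 0.23, adjusted p = 0.536), whose 2 other probes went the opposite way. Of 15 lipid handling genes, 5 were lower, 2 higher and 8 without a call, and 3 were lower with either peritoneal array left out. Apoc1, an apolipoprotein, was lower by at least 14.2-fold (adjusted p = 2.64e-05), and Lpcat3, an enzyme of membrane phospholipids, at least 2.68-fold (adjusted p = 0.000994). Ch25h, which makes 25-hydroxycholesterol, was higher by at least 7.42-fold (adjusted p = 3.16e-05), and Pparg, a nuclear receptor for lipids, at least 1.86-fold (adjusted p = 0.00153). The higher members were 13.3% of the lipid handling list, again near the share of all tests.

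Growth factor genes were called mostly higher (5 of 14, with 1 lower, 8 without a call and a median of 0.33). Hbegf, a membrane-bound ligand of the EGF receptor, read 7.37 and 7.80 on the intact heart arrays, against 4.55 and 4.95 on the peritoneal arrays (2.84 ± 0.23, adjusted p = 5.34e-05), and Pdgfa, a growth factor for fibroblasts, 7.53 and 8.35 on the intact heart arrays, against 5.83 and 5.40 on the peritoneal arrays (2.33 ± 0.32, adjusted p = 0.000939). Pdgfb was higher by at least 3.38-fold (adjusted p = 8.92e-05). Tgfb2 was lower by at least 3.41-fold (adjusted p = 3.14e-05). Genes used as markers of alternative activation split: of 15, 7 were higher, 5 lower and 3 without a call. Mrc1, Egr2 and Cd163 stood at the high end, and Fn1, Arg1, Alox15, Msr1 and Ccl24 were lower. Retnla (-0.53 ± 0.21, adjusted p = 0.0982; called lower without intact heart replicate 1, adjusted p = 0.031), Chil3 (-1.18 ± 0.46, adjusted p = 0.0909) and Il4ra (0.17 ± 0.21, adjusted p = 0.576) were not called. Chil3 was below background in the heart, and was called lower when the 4 arrays were fitted alone or with either MI heart array left out.

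Genes for the uptake and recycling of haem iron were higher in the heart where they were called, except for Hp and Trf. Of 18 tested members, 7 were higher in the intact heart, 2 lower and 9 without a call, with a median difference of 0.13. Slc40a1, ferroportin, the only known iron exporter, read 8.02 and 7.86 on the intact heart arrays, against 4.32 and 4.28 on the peritoneal arrays (at least 11.4-fold higher, adjusted p = 2.91e-06). Hmox1, haem oxygenase, which opens the haem ring, read 7.57 and 7.42 on the intact heart arrays, against 4.81 and 4.57 on the peritoneal arrays (2.80 ± 0.20, adjusted p = 1.93e-05). Slc11a2, the divalent metal transporter, differed by 2.03 ± 0.38 (adjusted p = 0.005), with the heart arrays well apart at 6.52 and 7.98. Trf, transferrin, was lower (-0.81 ± 0.15, adjusted p = 0.00534). Hmox1 is also a target of NRF2, the factor of the antioxidant response, of whose genes 3 of 15 were higher, 4 lower and 8 without a call. The others higher were Nfe2l2, which encodes NRF2 itself (1.27 ± 0.16, adjusted p = 0.000522), and Srxn1, sulfiredoxin (1.44 ± 0.37, adjusted p = 0.0207; lost when any array other than intact heart replicate 1 was left out, highest adjusted p = 0.188 without peritoneal cavity replicate 1). Gpx4, the glutathione peroxidase of membrane lipids, was lower (-1.54 ± 0.18, adjusted p = 0.00035). The count of lower members was 2 with either intact heart array left out, without peritoneal cavity replicate 1 and without MI heart replicate 1.

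Most lysosomal genes were not called. Of 28 tested, 6 were higher, 5 lower and 17 without a call, with a median of 0.17, and their summed intensity was 11524 and 11073 on the intact heart arrays, against 10338 and 9826 on the peritoneal arrays. Cd63 was the largest increase, and the protease gene Ctsc was higher too (1.22 ± 0.18, adjusted p = 0.00122). The lower members included hydrolases of sugar chains, among them Naglu (-1.45 ± 0.24, adjusted p = 0.00255), Man2b1 (-1.34 ± 0.16, adjusted p = 0.000379) and Glb1 (-1.58 ± 0.26, adjusted p = 0.00242; adjusted p = 0.052 without peritoneal cavity replicate 2). Without peritoneal cavity replicate 2 the counts were 3 higher and 3 lower, and without replicate 1 they included 3 lower.

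About as many respiratory chain genes were lower in the intact heart as had no call. Of 33 tested genes, 17 were lower and 16 without a call by limma, none was higher (0 also at an unadjusted p under 0.05), and the median difference was -0.56. Ndufa1, of complex I, read 7.01 and 7.34 on the intact heart arrays, against 8.53 and 8.49 on the peritoneal arrays (-1.33 ± 0.17, adjusted p = 0.00065). Cox7b, of cytochrome oxidase, read 5.33 and 5.14 on the intact heart arrays, against 6.42 and 6.21 on the peritoneal arrays (-1.08 ± 0.16, adjusted p = 0.0017), and Ndufb3 and Ndufs4, again of complex I, differed by -1.04 ± 0.16 (adjusted p = 0.00189) and -1.02 ± 0.18 (adjusted p = 0.00316). Uqcrc1, of the cytochrome bc1 complex, differed by -0.94 ± 0.16 (adjusted p = 0.00276). The count of lower members was 7 with either peritoneal array left out. The summed intensity was 5170.2 and 5211 on the intact heart arrays, against 7499 and 7874 on the peritoneal arrays.

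Ribosomal protein genes were called in 1 direction only. Of 24, 7 were lower, none higher (0 at an unadjusted p under 0.05) and 17 without a call, with a median of -0.31. Rps6, a protein of the small subunit and target of S6 kinase, read 6.89 and 7.37 on the intact heart arrays, against 8.04 and 8.27 on the peritoneal arrays (-1.03 ± 0.20, adjusted p = 0.0055; adjusted p = 0.068 without peritoneal cavity replicate 2). The count depended on single arrays: it was 0 without peritoneal cavity replicate 2, 2 without replicate 1 and 3 without intact heart replicate 1. These genes have many near-identical pseudogenes, and what their probes bind was not tested. Glycolysis genes went both ways (3 of 17 higher, 5 lower, 9 without a call, median -0.34). Pfkl, liver phosphofructokinase, read 5.35 and 5.28 on the intact heart arrays, against 7.71 and 7.52 on the peritoneal arrays (-2.30 ± 0.29, adjusted p = 0.000579), and Ldha, lactate dehydrogenase, was lower (-1.07 ± 0.17, adjusted p = 0.00237). Pfkfb4, a regulator of phosphofructokinase, was higher (1.78 ± 0.18, adjusted p = 0.000163), and so was the glucose transporter gene Slc2a1 (1.54 ± 0.27, adjusted p = 0.00322; adjusted p = 0.06 without peritoneal cavity replicate 1). Without peritoneal cavity replicate 1, 1 glycolysis gene was higher and 3 were lower. In the citric acid cycle 2 of 14 genes were lower (14.3%, near the 12.8% of all tests). They were Idh1, cytosolic isocitrate dehydrogenase (-2.37 ± 0.16, adjusted p = 1.46e-05), and Acly, which makes acetyl-CoA from citrate (-2.13 ± 0.19, adjusted p = 7.61e-05). With arrays scaled by their medians 7 were lower.

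**Figure D5:**
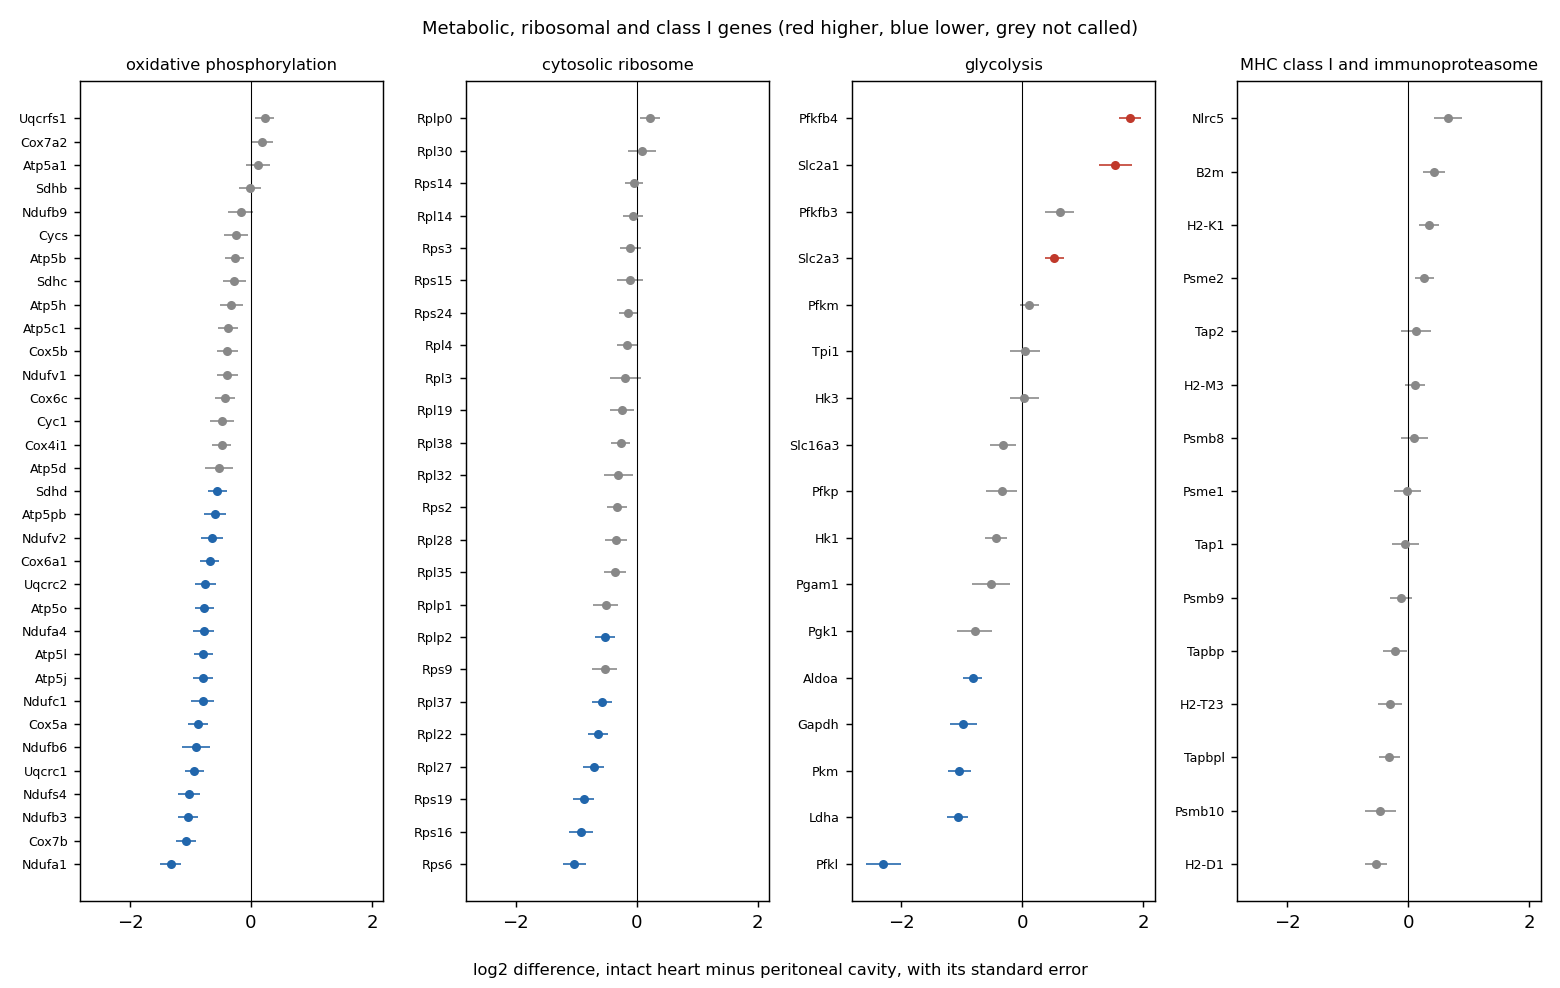
Log2 difference, intact heart minus peritoneal cavity, with its standard error (bars, n = 2 arrays per group) for each tested gene of 4 lists, sorted within each list. Red genes were called higher, blue genes lower and grey genes not called. Most respiratory chain genes lie left of 0 by up to 1.33, glycolysis genes lie on both sides, and class I genes scatter around 0 with no call.

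Endoplasmic reticulum stress genes were called in a minority (6 of 20 higher, 1 lower, 13 without a call, median -0.16). Those higher included, after Atf3, Ppp1r15a, a phosphatase subunit that restores translation (2.76 ± 0.18, adjusted p = 1.35e-05), and Ddit3, the factor CHOP (2.13 ± 0.18, adjusted p = 5.47e-05). Sdf2l1, a chaperone partner of the lumen, was lower (-1.37 ± 0.23, adjusted p = 0.00307; adjusted p = 0.0509 without peritoneal cavity replicate 1, which left no lower member). Of 24 cell cycle genes 3 were higher (12.5%), 1 lower (4.17%) and 20 without a call. Of all tests 12.5% were higher and 12.8% lower, so these genes were not called more often. Cdkn1a, the cell cycle inhibitor p21, differed by 2.06 ± 0.31 (adjusted p = 0.00148), and the cyclin genes Ccnd2 (at least 3.44-fold higher, adjusted p = 0.00117; above background on 1 peritoneal array) and Ccnd3 (-1.31 ± 0.21, adjusted p = 0.00223) went opposite ways. Of 26 actin cytoskeleton genes, 5 were higher, 4 lower and 17 without a call. Coro1a, coronin of leukocytes, read 8.23 and 8.36 on the intact heart arrays, against 5.49 and 5.82 on the peritoneal arrays (2.64 ± 0.17, adjusted p = 1.42e-05). Fscn1, the actin-bundling protein fascin, was lower (-2.17 ± 0.27, adjusted p = 0.000579). Of the other lower members Tln1, talin, lost its call when any array other than intact heart replicate 1 was left out (highest adjusted p = 0.223 without peritoneal cavity replicate 2). The count of lower members was 1 or 2 whichever array was left out.

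Among the genes with the largest differences, several belonged to no list. Serpinf1, a secreted inhibitor of vessel growth, read 9.02 and 9.40 on the intact heart arrays, against 4.45 and 4.35 on the peritoneal arrays (4.81 ± 0.19, adjusted p = 1.71e-06). Rgs1, which dampens chemokine receptor signals, read 8.87 and 9.05 on the intact heart arrays, against 5.23 and 5.23 on the peritoneal arrays (3.73 ± 0.16, adjusted p = 2.31e-06). Slamf7, an adhesion receptor of leukocytes, was at least 13.3-fold (adjusted p = 9e-06), and Phlda1, an early stress gene, at least 12.2-fold higher (adjusted p = 2.31e-06). Each of the 4 was higher in both heart arrays without overlap, but the named genes were partly chosen for a lack of overlap. In the other direction, Rab27a, a small GTPase of secretory granules, read 5.21 and 5.37 on the intact heart arrays, against 9.44 and 9.57 on the peritoneal arrays (-4.21 ± 0.16, adjusted p = 1.71e-06). St3gal5, which makes the ganglioside GM3, read 5.79 and 5.41 on the intact heart arrays, against 9.65 and 9.83 on the peritoneal arrays (-4.14 ± 0.19, adjusted p = 2.91e-06). Pygl, glycogen phosphorylase, was lower by at least 9.53-fold (adjusted p = 3.15e-06) and at background in the heart. Smpdl3a, a nucleotide-cleaving enzyme, differed by -3.13 ± 0.20 (adjusted p = 1.17e-05), Abi3, an adaptor of actin regulation, by -2.91 ± 0.17 (adjusted p = 8.72e-06), and 4930455G09Rik by -3.29 ± 0.17 (adjusted p = 4.19e-06).

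Globin transcripts of red cells were among the largest decreases. Hbb-bt, an adult beta globin gene, read 4.59 and 4.70 on the intact heart arrays, against 8.23 and 8.54 on the peritoneal arrays (-3.74 ± 0.19, adjusted p = 4.47e-06), and Hbb-bs, its near-identical copy, 6.91 and 6.12 on the intact heart arrays, against 9.79 and 9.99 on the peritoneal arrays (-3.37 ± 0.30, adjusted p = 8.32e-05). Both were above background on all 4 arrays and far higher in the peritoneal cavity, and the split between the copies is uncertain. Hba-a1, an alpha globin gene chosen after its values were seen, went the same way (at least 9.09-fold lower, adjusted p = 9.21e-06; above background on 1 heart array). The part of globin transcripts in other results was not tested.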

How the data were processed

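The arrays hold 45281 probes each. The authors deposited the linear signal intensity of each probe, not normalized between arrays, with a detection p-value beside it, per the file headers. A second deposited table holds intensities that the authors brought to 1 common distribution. Its MI heart and peritoneal columns match those of the other replicate in the signal table (swapped numbers within a group), and it served as an alternative. The sources used here do not name the scanner, the software or the number of animals. No column of other samples was left aside (0).

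Signals were background-corrected with limma's neqc from the detection p-values (offset 16), quantile normalized and taken to log2, a step made here and not by the authors, whose deposited values are linear and not log2. Probes with a detection p-value under 0.05 on both arrays of at least 1 of the 3 groups were kept (14817), and of the probes of a gene the one with the highest mean was tested, which gave 8244 genes and 2289 unnamed probes. Of the probes, 34885 had 1 gene symbol in the platform annotation, 18 several and 10378 none. Linear models with empirical Bayes moderation (limma 3.58.1 in R 4.3.3; lmFit, eBayes) were fitted over all 6 arrays (3 residual and 5.78 prior degrees of freedom), with Benjamini-Hochberg adjustment. No depth in reads exists for arrays: precision is limited by the 2 arrays per group.

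The comparison and the gene lists were chosen with earlier results of these data known. The genes named in the text were drawn, not all of them, from the 12 genes per direction with the largest difference above background on both arrays of both groups without overlap, the 8 per direction with the largest bound, the gate genes, called markers of other cells, and per list the 4 largest called members and up to 5 that were not called or went the other way. Cfb, Cfp, Ciita, Csf1r, Ctsc, Ednrb, Fcna, Hba-a1, Hspb1, Lgmn, Ltc4s, Lyve1, Mertk, Nfkbia, Pros1, Slc11a2, Timd4, Tyrobp and Uqcrc1 lie outside that rule and were chosen after their values were seen. The list members were matched to RefSeq promoters by symbol. A GATA motif, AGATAA, was searched as well. It was found in 3 of 19 promoters of large peritoneal macrophage genes (15.8%), against 11.2% of all promoters and 6.54% for tested genes. Alternatives changed the background correction, scaling, filter, probe choice, arrays in the fit, variance model and replicate block, and left out each array in turn.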

Additional observations from a re-analysis of the deposited data

How the results depend on the processing

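Over 19 alternatives, no named gene changed direction past the threshold. Of 210 called genes the text names or the rule picks, 165 kept their call wherever they were tested. With arrays scaled by their medians 740 genes were higher, and with probes detected at p under 0.01 on all arrays, which tests 5135 genes, 770 were higher and 753 lower. Leaving out each array in turn gave 693 to 1216 higher and 640 to 1170 lower, the fewest without a peritoneal array. Each such setting leaves 1 group with a lone array that is assumed to vary like the others. Counts elsewhere were within 1.5 times those of the main setting. Replicates 1 and 2 are only numbers in the labels, and the deviations of the same-numbered arrays of both sites correlated at 0.18. With replicate as a block (replicate block) 1477 genes were higher and 1560 lower. Of the large peritoneal macrophage genes, 5 passed the stricter detection filter and all 5 were lower. Signals near background limit what can be said of dim genes, whose differences shrink with the offset. Causes of these changes were not tested.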
